A study of Rattus norvegicus with 9 samples.

Results

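The potassium channel genes of the rat hippocampus were taken from a deposited table of FPKM, in which sequenced fragments are scaled to the length of the transcript and to the size of the library. Gene symbols made of Kcn, letters and a number, which name pore-forming and accessory subunits, were found in 89 rows. The choroid plexus genes Kcne2 and Kcnj13 were left out, and no symbol was repeated or named an antisense or pseudogene. The remaining 87 genes, out of 21138 in the table, were described in all 9 libraries. Of these, 72 had at least 0.5 FPKM in at least 3 libraries and were tested, as were 15099 genes of the whole table.

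The libraries were made from hippocampus of wild-type male Sprague-Dawley rats, 6 months old, and came from 3 groups of 3 replicates each. The CK group was the control without surgery, the VD group was a model of vascular dementia made by tying off both common carotid arteries, and the INS+VD group had the same ligation followed by insulin through the nose at 1 U/kg per day. CK and VD rats received normal saline at 0.5 mL per day, and all samples were taken at day 56. The ligation lowers blood flow to the whole forebrain and not to the hippocampus alone, and the sham-operated rats of the study are not analysed here, so that ligation and the surgery itself cannot be told apart in VD vs. CK. The study names 3 biological replicates per treatment without tying them to single rats, so each p-value is set against a spread among samples that may be technical in part.

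Potassium channels let potassium ions leave the cell and thereby set the resting potential, end each action potential and limit repetitive firing. Voltage-gated (Kv) channels open on depolarisation, inward rectifiers (Kir) and the K2P leak channels are active near rest, and calcium- or sodium-activated channels couple firing to ions that enter the cell. In the hippocampus most of these genes are used by neurons, while Kcnj10 is the main potassium channel gene of astrocytes and Kcnk13 and Kcnn4 are used by microglia.

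The 9 libraries were not alike within groups. Their FPKM added up to 453716 to 635759, and 14428 genes were above 0 in VD replicate 1, against 17441 to 18088 in each other library. CK replicate 3 carried cerebellar markers at a summed level of 4606 FPKM, against at most 379 FPKM in any other library. VD replicate 2 carried hindbrain and spinal cord markers at 132 FPKM, against at most 7.78 FPKM elsewhere, with Hoxb2 to Hoxb6 at 10.4 to 25.2 FPKM there and at 0.062 FPKM or less in every other library. Summed markers of the olfactory bulb were at 242 and 616 FPKM in VD replicates 1 and 3, against at most 19.3 FPKM elsewhere but for INS+VD replicate 2, where Th alone made up 121.7 of 131.5 FPKM. Choroid plexus markers were at 1749 FPKM in INS+VD replicate 1 and at most 25.7 FPKM elsewhere. Summed thalamus markers were at 379 FPKM in INS+VD replicate 2 and 473 FPKM in CK replicate 3 (416 FPKM of it Calb2), against 25.3 to 194 FPKM elsewhere. Tcf7l2 (41.5 FPKM), Slc17a6 (95.5 FPKM), Shox2 (18.4 FPKM) and Lef1 (8.94 FPKM) were highest in INS+VD replicate 2. Prkcd, Rora, Gbx2 and Calb2 were highest in other libraries. Oligodendrocyte markers reached 15531 FPKM in VD replicate 2 and 8729 FPKM in INS+VD replicate 2, against 1363 to 7302 FPKM in the 7 others. The hippocampal label itself was checked with 16 markers of excitatory neurons, whose sum was 1621 to 4138 FPKM (CK), 191 to 5061 FPKM (VD) and 418 to 3562 FPKM (INS+VD). It was lowest in VD replicate 2 and INS+VD replicate 2. The highest sum, that of VD replicate 1, was mostly Nrgn (4518 FPKM). Without Nrgn the sums were 1616 to 2261 FPKM (CK), 170 to 773 FPKM (VD) and 278 to 2286 FPKM (INS+VD), and in VD replicates 1, 2 and 3 there were 11, 13 and 12 of the 16 markers below both CK replicates 1 and 2. The part of these differences between libraries in the channel values was not tested. Fibcd1 was listed at 0 in CK replicate 3 and VD replicates 1 and 2, Prox1 in VD replicate 1 and Tbr1 in VD replicate 2.

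VD replicate 1 also lacked values for genes that every other library had. It was listed at 0 for 568 of the 11426 genes that exceeded 1 FPKM in the 8 others (4.97%), and for 5 of 46 potassium channel genes (10.9%). These were Kcna1, Kcna3, Kcnj2, Kcnk9 and Kcns2, and their library values are given below without a mean. Of 20 genes that every cell uses, none was at 0 in this library.

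Nearly the whole range of neuronal potassium channels was read in these libraries. A mean of at least 10 FPKM over the 9 libraries was reached by 42 of the 87 genes, and 45 were at or above 0.5 FPKM in every library. Kcnab2, the accessory subunit Kvβ2, had the highest mean at 84.8 FPKM, followed by Kcnmb4, the neuronal β subunit of the BK channel, at 60.2 FPKM and by Kcnj10 at 57.6 FPKM. Kcnh3, an ELK channel of the forebrain, averaged 52.3 FPKM. Kcnc1, a Kv3 channel of fast-spiking neurons, also averaged 52.3 FPKM, but 32.1 FPKM over the 8 libraries other than CK replicate 3. At the other end, the 15 genes that were not tested never exceeded 1.03 FPKM (Kcnh8 in VD replicate 3). They included the cardiac and epithelial channels Kcnq1 and Kcnj1 and the sperm channel Kcnu1.

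Summed over the 87 genes, potassium channel FPKM was lower in every VD library than in the CK libraries. The sums were 1455, 1448 and 1705 FPKM (CK), 897, 935 and 1165 FPKM (VD) and 1516, 1128 and 1297 FPKM (INS+VD). INS+VD replicate 2 lay within the VD range and the other two INS+VD libraries above it. In the plot of levels by library, single genes were also seen to differ widely between replicates. The median SD within groups on the log2(FPKM + 1) scale was 0.949 for the 72 genes and 0.492 for all 15099.

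**Figure D1:**
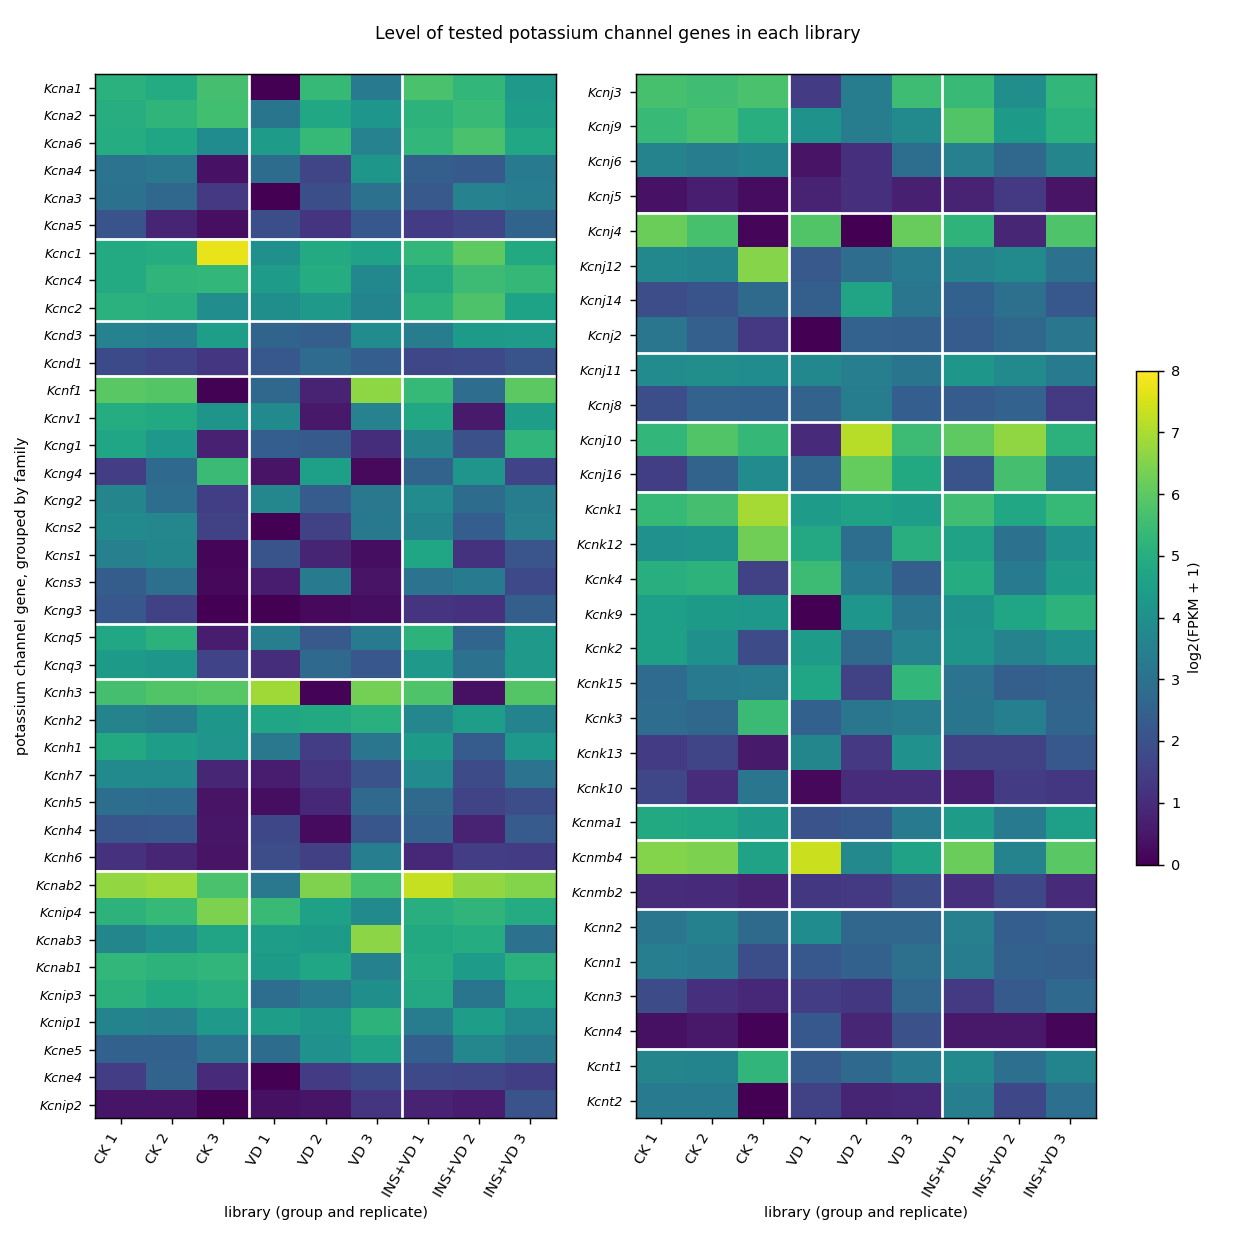
Level of 68 of the 72 tested potassium channel genes in each of the 9 libraries as log2(FPKM + 1), by color from 0 (dark) to 8 (yellow), with genes grouped by family between white horizontal lines and treatment groups between white vertical lines. Dark cells in VD replicate 1 (Kcna1, Kcna3, Kcnj2, Kcnk9) are listed zeros, and CK replicate 3 holds the yellow cell of Kcnc1 (213 FPKM).

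VD vs. CK asks which genes differ after carotid ligation, and INS+VD vs. VD asks which differ between ligated rats with and without insulin. Fold changes are log2 differences of FPKM + 1, a scale that understates the change of genes near or below 1 FPKM, and both comparisons use the same VD libraries. No potassium channel gene passed the thresholds of the study (limma adjusted p of 0.05 or less and a log2 fold change of 1 or more in size), and neither did any other gene (0% of 15099 in VD vs. CK, in INS+VD vs. VD and in INS+VD vs. CK). Adjusted p reached 0.196 at its smallest in VD vs. CK, and 0.512 in INS+VD vs. VD. The genes called higher or lower below reached the unadjusted limma p of at most 0.05 with the same fold change, and none of them is shown to differ once all genes are accounted for. Without the fold change minimum, 19 and 12 potassium channel genes and 1925 and 1417 of all genes were at this p.

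Channel genes called lower in VD outnumbered those called higher. In VD vs. CK, 14 of the 72 (19.4%) were called lower, against a background of 4.89% of all genes, and 4 (5.56%) were called higher, against 3.89%. The 4 include Kcnn4, which entered the test only through the VD libraries. The groups did not overlap, with VD lower, for 17 genes (23.6%; 8.27% of all genes) and, with VD higher, for 6 (8.33%; 9.74% of all genes). The log2 fold change was below 0 for 52 of the 72 genes (72.2%; 51.3% of all genes), with a median of −0.68 for the channels and −0.02 for all genes. Libraries rescaled to an equal sum gave 17 lower and 3 higher (6.88% and 2.5% of all genes). Median centring gave 11 and 7 (3.94% and 5.72%), and quantile normalization gave 13 and 7 (4.68% and 4.36%). The median of the channels stayed between −0.81 and −0.50 under these scalings, while that of all genes moved to −0.19 with the equal sum and to 0.16 with median centring.

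In INS+VD vs. VD the counts leaned the other way, with VD now the group compared against. Of the 72 genes, 9 (12.5%) were called higher, against 3.64% of all genes, and 1 (1.39%) was called lower, against 2.54%. The gene called lower was Kcnn4, which had to differ, as it was tested through the VD libraries alone. Of those called higher, Kcng3 passed the filter with no VD library at 0.5 FPKM. Groups that did not overlap were found for 9 genes with INS+VD higher (12.5%; 7.57% of all genes) and for 4 with INS+VD lower (5.56%; 7.6% of all genes). The median log2 fold change was 0.65 for the channels and 0.04 for all genes. Equal sums gave 13 higher and 1 lower (5.61% and 1.29% of all genes). Median centring gave 6 and 3 (2.81% and 3.54%), and quantile normalization 8 and 3 (3.3% and 3.06%). The counts moved with single libraries, and so did the shares of all genes. Without VD replicate 1, 9 channel genes were lower in VD vs. CK (2.43% of all genes) and 5 higher in INS+VD vs. VD (1.5%). Without VD replicate 2 the count higher in INS+VD vs. VD was 14 (5.85% of all genes). Without VD replicate 3 that higher in VD vs. CK was 2 (5.22% of all genes). In whole tissue, fewer cells of a type and less RNA per cell cannot be told apart, and this holds for every gene below.

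**Figure D2:**
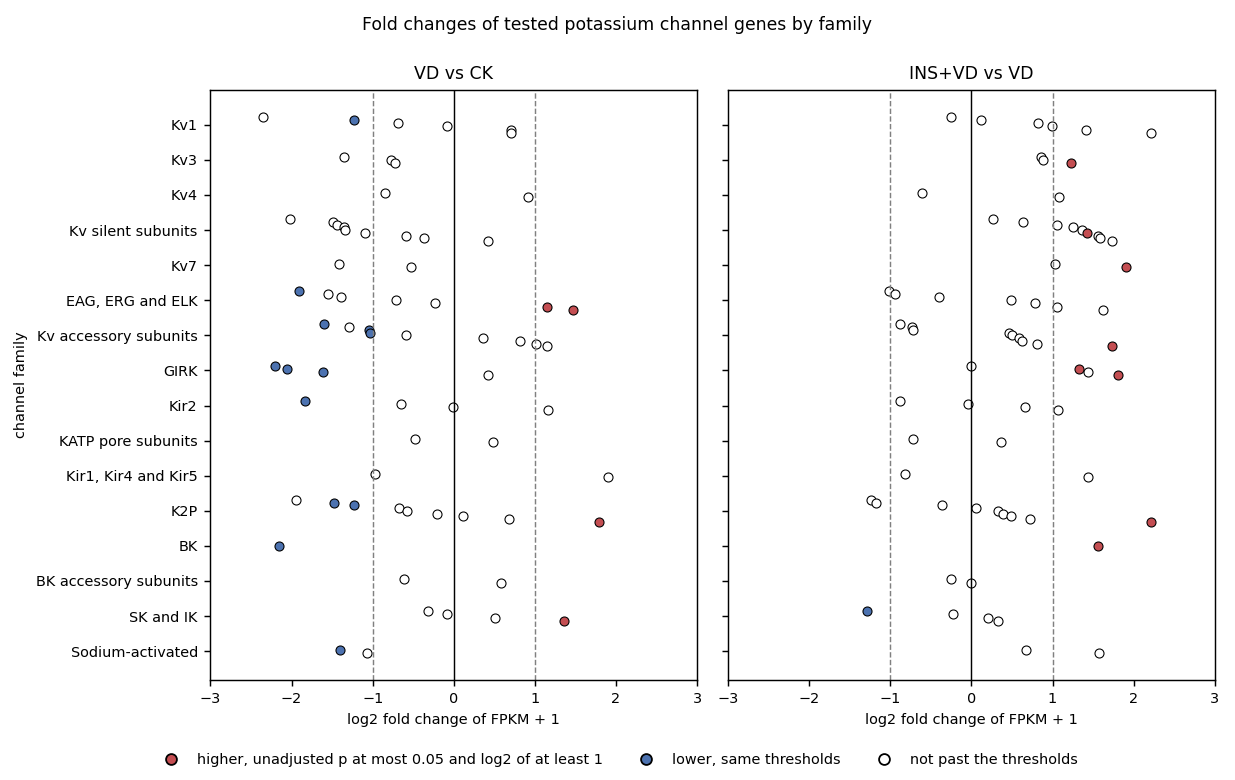
Log2 fold change of FPKM + 1 of 68 of the 72 tested potassium channel genes in VD vs. CK (left) and INS+VD vs. VD (right), by family, 1 point per gene. Blue and red points were called lower (13 and 1 of those drawn) and higher (4 and 8) at the unadjusted limma p of at most 0.05 and a log2 fold change of at least 1 (dashed lines), and open points were not called.

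Of the Kv1 family, the channels of axons and presynaptic terminals, 6 of 7 genes were tested and 1 was called. Kcna2, which sets the firing threshold at the axon initial segment, read 30.7, 36.8 and 46.8 FPKM (CK), 7.63, 26.4 and 17.5 FPKM (VD) and 35.2, 42 and 21.4 FPKM (INS+VD). All VD libraries lay below all CK libraries, and the INS+VD libraries overlapped both. The log2 fold change in VD vs. CK was −1.24 (SE 0.44, adjusted p = 0.343), and it no longer reached the thresholds without CK replicate 3 or without VD replicate 1 (−0.77 without the latter). Kcna1, its partner in heteromeric axonal channels, read 33.7, 29.5 and 49.1 FPKM (CK), 0, 40.0 and 8.72 FPKM (VD) and 51.1, 38 and 18.8 FPKM (INS+VD), and its lowest VD value is one of the listed zeros. Kcna3 read 6.90, 5.39 and 1.48 FPKM (CK), 0, 2.81 and 6.83 FPKM (VD) and 3.67, 10.7 and 9.38 FPKM (INS+VD). Kcna1, Kcna5 and Kcna6 lie on chromosome 4 and Kcna2 and Kcna3 on chromosome 2 in the deposited table.

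The Kv3 channels allow fast spiking. Only Kcnc2, a Kv3 channel of parvalbumin interneurons, was called, and only in INS+VD vs. VD. It read 33.8, 31.6 and 14.1 FPKM (CK), 14.8, 18.6 and 11.3 FPKM (VD) and 35.1, 53.1 and 23.9 FPKM (INS+VD). Every INS+VD library lay above every VD library, with a log2 fold change of 1.22 (SE 0.42, adjusted p = 0.512), and the call was lost without VD replicate 3 or INS+VD replicate 2. Kcnc1 read 213 FPKM in CK replicate 3, where the cerebellar markers were high, and 15.3 to 64.3 FPKM in the other 8 libraries. The part of the cerebellar markers in this value was not tested.

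The Kv4 channels carry the fast A-type current of dendrites, and 2 of them were tested. Kcnd3, the higher of the pair, averaged 13.8 ± 5.98 FPKM (SD, n = 3) in CK, 7.74 ± 5.33 FPKM (SD, n = 3) in VD and 16.4 ± 6.13 FPKM (SD, n = 3) in INS+VD, with overlapping groups. Kcnd1 read 2.47, 2.03 and 1.39 FPKM (CK), 3.58, 5.96 and 4.22 FPKM (VD) and 2.24, 2.41 and 3.24 FPKM (INS+VD). Every VD library lay above every other library, but the log2 fold change in VD vs. CK, 0.91 (SE 0.29, adjusted p = 0.303), was under the minimum of 1.

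The silent subunits, which form no channel alone and modify Kv2 channels, gave 1 call among 9 tested genes. Kcng3 was nearly unread in VD (at 0, 0.139 and 0.217 FPKM) and higher in INS+VD (at 1.31, 1.21 and 4.33 FPKM), a log2 fold change of 1.43 (SE 0.55, adjusted p = 0.512). In CK it read 3.50, 2.02 and 0 FPKM, so that CK replicate 3 was at the VD level. Kcng3 passed the filter through all INS+VD libraries and CK replicates 1 and 2, with no VD library at 0.5 FPKM. Its difference between INS+VD and VD was therefore in part fixed by the filter and is a description. The call was lost without any 1 of the 3 VD libraries, although the log2 fold change stayed at 1.35 to 1.49, and without INS+VD replicate 3, where it was 1.02. Kcnf1, the silent subunit with the highest mean, ran from 0.0439 FPKM in CK replicate 3 to 99.4 FPKM in VD replicate 3, wider than any difference between group means (39.6 ± 34.3 FPKM (SD, n = 3) in CK, 35.1 ± 55.7 FPKM (SD, n = 3) in VD, 36.2 ± 28.2 FPKM (SD, n = 3) in INS+VD). Kcns2 read 13.3, 12 and 1.98 FPKM (CK), 0, 1.93 and 8.39 FPKM (VD) and 11.1, 4.23 and 10.2 FPKM (INS+VD).

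Kcnq3 encodes a Kv7 subunit of the M-current, a slow current that muscarinic receptors close and that restrains repetitive firing. It read 19.5, 17.8 and 2.02 FPKM (CK), 1.05, 5.63 and 3.49 FPKM (VD) and 18.6, 7.17 and 19.1 FPKM (INS+VD). CK replicate 3 lay within the VD range, and Kcnq3 was not called in VD vs. CK. All INS+VD libraries were above all VD libraries, with a log2 fold change of 1.91 (SE 0.78, adjusted p = 0.512) that kept its call in 5 of the 9 fits that each left out 1 library. Kcnq5, another Kv7 gene, was not called and was at 0.576 FPKM in CK replicate 3 against 26.9 and 34.3 FPKM in the other CK libraries.

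The EAG, ERG and ELK family, 7 of 8 genes tested, had calls in both directions in VD vs. CK. Kcnh1, the EAG channel, read 27.7, 21.6 and 16.8 FPKM (CK), 8.24, 1.73 and 7.74 FPKM (VD) and 19.5, 4.01 and 18.1 FPKM (INS+VD). VD lay below CK without overlap, with a log2 fold change of −1.90 (SE 0.64, adjusted p = 0.313), and the call was lost without VD replicate 2. INS+VD replicate 2 was as low as the VD libraries.

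The ERG channels, which resist depolarisation and damp bursts of firing, gave 2 calls among 3 genes in VD vs. CK. Kcnh2, the gene known from cardiac repolarisation, read 11, 9.18 and 17.8 FPKM (CK), 24.8, 28.1 and 32.8 FPKM (VD) and 12, 21.3 and 11.3 FPKM (INS+VD), with all VD libraries above all others. Its log2 fold change in VD vs. CK was 1.15 (SE 0.34, adjusted p = 0.269). Kcnh6, a second ERG gene at a much lower level, read 1.22, 0.795 and 0.340 FPKM (CK), 2.70, 1.84 and 9.71 FPKM (VD) and 0.869, 1.73 and 1.66 FPKM (INS+VD). It was higher in every VD library than in any other library, by 1.47 (SE 0.48, adjusted p = 0.306) in VD vs. CK, but VD replicate 3 stood far above the other two, and without it the log2 fold change was 0.89 and no longer called. Without CK replicate 2 that of Kcnh2 was 0.97, also no longer called. Kcnh7, the third ERG gene, had its lowest mean in VD and read 13.3, 13.2 and 0.808 FPKM (CK), 0.527, 1.29 and 3.15 FPKM (VD) and 13.4, 2.63 and 7.18 FPKM (INS+VD). CK replicate 3 lay within the VD range, and the log2 fold change in VD vs. CK, −1.56 (SE 0.84, adjusted p = 0.44), was not called. Kcnh3 read 49.3, 55.8 and 60.1 FPKM (CK), 114, 0.0595 and 78.7 FPKM (VD) and 54.8, 0.294 and 57.4 FPKM (INS+VD), so that replicate 2 of both ligated groups was close to 0.

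Accessory subunits gave 3 lower calls in VD vs. CK among 9 tested genes. Kcnip3, a calcium-binding partner of Kv4 channels also known as the transcriptional repressor DREAM, read 34.4, 27.8 and 31.2 FPKM (CK), 6.45, 9.04 and 14.7 FPKM (VD) and 27.2, 7.63 and 24.9 FPKM (INS+VD). The CK libraries lay above all others, and INS+VD replicate 2 was in the VD range. Its log2 fold change was −1.60 (SE 0.48, adjusted p = 0.269), called under all 24 alternatives and −1.89 to −1.35 when 1 library was left out.

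Kcnab1, the Kvβ1 subunit that speeds the closing of Kv1 channels, read 38.2, 34.9 and 37.1 FPKM (CK), 19.5, 25.2 and 10.4 FPKM (VD) and 29.7, 19.8 and 33.7 FPKM (INS+VD). VD lay below CK without overlap, with a log2 fold change of −1.04 (SE 0.35, adjusted p = 0.316) that was −0.70 and not called without VD replicate 3. Kcnip4, another Kv4 partner, read 34.8, 40.3 and 83.8 FPKM (CK) and 41.8, 22.9 and 13.1 FPKM (VD), and the groups overlapped. Its log2 fold change of −1.04 (SE 0.45, adjusted p = 0.389) lost its call in 14 of 24 alternatives. Kcnab2 read 104, 112 and 51.1 FPKM (CK), 8.26, 86.5 and 50.3 FPKM (VD) and 157, 104 and 89.9 FPKM (INS+VD), with INS+VD above VD in all libraries. Its log2 fold change of 1.73 (SE 0.74, adjusted p = 0.512) in INS+VD vs. VD rested on VD replicate 1, without which it was 0.78, and was lost in 11 of 24 alternatives.

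GIRK genes were called lower in VD vs. CK for 3 of 4 members. GIRK channels open when inhibitory receptors, such as the GABA-B receptor, release G protein βγ subunits, and they slow neurons down. Kcnj3, the obligate partner subunit GIRK1, read 50.3, 45.4 and 51.2 FPKM (CK), 1.65, 9.55 and 44.6 FPKM (VD) and 41.1, 14.3 and 38.4 FPKM (INS+VD). VD replicate 3 was just below the CK libraries and the other VD libraries were far below, so that VD and CK did not overlap. In VD vs. CK the fitted log2 fold change was −2.20 (SE 0.87, adjusted p = 0.363), and the call was lost without any 1 of the CK libraries, VD replicate 1 or VD replicate 2, with values from −2.25 to −1.19 in those fits. Without VD replicate 3 it was −3.24 and called.

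Kcnj6, the neuronal subunit GIRK2, read 10.9, 9.59 and 11.1 FPKM (CK), 0.351, 1.14 and 6.41 FPKM (VD) and 10.1, 5.56 and 11.4 FPKM (INS+VD). All VD libraries lay below all CK libraries, and VD replicate 3 overlapped with INS+VD replicate 2. Its log2 fold changes were −2.05 (SE 0.58, adjusted p = 0.249) in VD vs. CK and 1.80 (SE 0.58, adjusted p = 0.512) in INS+VD vs. VD. Kcnj9, the subunit GIRK3, read 41.6, 50.5 and 32 FPKM (CK), 16.3, 9.46 and 12.9 FPKM (VD) and 55.2, 19.5 and 33.6 FPKM (INS+VD). The VD libraries were the lowest of all 9, with log2 fold changes of −1.62 (SE 0.40, adjusted p = 0.205) in VD vs. CK and 1.33 (SE 0.40, adjusted p = 0.512) in INS+VD vs. VD. In VD vs. CK Kcnj9 was called under all 24 alternatives, and in INS+VD vs. VD it was 0.97 and not called without INS+VD replicate 1. Kcnj5, the subunit GIRK4 best known from the heart, stayed at 0.207 to 1.57 FPKM.

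Kcnj6 and Kcnj9 were called in both comparisons, and the 250 bases before the start of each gene are shown so that their upstream sequences can be set side by side. Both were read 5′ to 3′ on the gene's strand from RefSeq on the GRCr8 build, a different source from the positions of the deposited table, and capitals mark the GC box GGGCGG on either strand. The Kcnj6 window is chr11:47778349-47778598 (minus strand) and the Kcnj9 window is chr13:87320294-87320543 (minus strand).
Kcnj6: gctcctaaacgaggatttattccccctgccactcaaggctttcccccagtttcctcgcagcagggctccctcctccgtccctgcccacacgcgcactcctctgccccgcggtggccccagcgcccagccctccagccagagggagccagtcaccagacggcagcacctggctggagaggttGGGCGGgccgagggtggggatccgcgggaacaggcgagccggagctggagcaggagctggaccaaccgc
Kcnj9: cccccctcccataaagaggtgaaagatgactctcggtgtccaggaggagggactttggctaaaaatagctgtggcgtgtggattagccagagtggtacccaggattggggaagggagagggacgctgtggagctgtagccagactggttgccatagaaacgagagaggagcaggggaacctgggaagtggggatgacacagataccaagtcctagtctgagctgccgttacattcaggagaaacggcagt
The Kcnj6 window was 69.2% G or C and held 1 GC box, and the Kcnj9 window was 54.8% G or C and held none. Across 27457 RefSeq windows of this length, 32.4% held a GC box and 13.1% held TATAAA on either strand, which neither gene had. Of the 87 potassium channel genes, 59 matched this table and no statement on their upstream sequences as a group is made.

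Of the G protein partners of GIRK channels, 17 were tested, and 0 were called higher and 3 lower (17.6%, beside 4.89% of all genes) in VD vs. CK. Gabbr2, the GABA-B subunit that couples to the G protein, read 103, 94 and 62.5 FPKM (CK), 17.5, 21.7 and 14.1 FPKM (VD) and 86.5, 50.4 and 105 FPKM (INS+VD). All VD libraries lay below all others, with log2 fold changes of −2.21 (SE 0.35, adjusted p = 0.196) in VD vs. CK and 2.08 (SE 0.35, adjusted p = 0.512) in INS+VD vs. VD. Gnao1, the Go α subunit, and Rgs7, which speeds the end of the G protein signal, had log2 fold changes of −1.68 and −1.08 in VD vs. CK. In INS+VD vs. VD, 3 partners were called higher (17.6%, beside 3.64% of all genes: Gabbr2, Gnao1 and Drd2) and 0 lower. Gabbr1, the ligand-binding GABA-B subunit, read 134 to 165 FPKM in CK and VD and was not called.

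**Figure D3:**
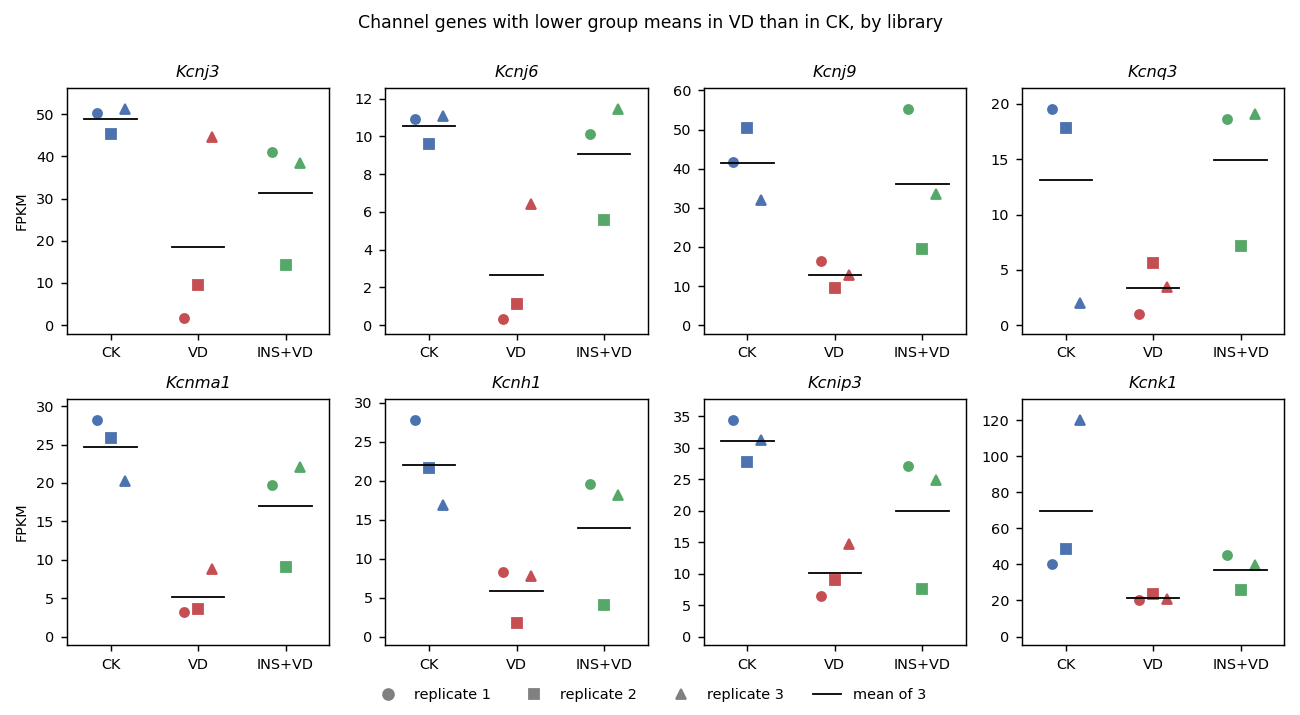
FPKM of 8 potassium channel genes with lower means in VD than in CK, 1 point per library (circle, square and triangle for replicates 1, 2 and 3) with the mean of the 3 as a line. Kcnj9, Kcnma1 and Kcnk1 show every VD library below every CK and INS+VD library, whereas CK replicate 3 of Kcnq3 (2.02 FPKM) lies within the VD range. VD replicate 3 of Kcnj3 (44.6 FPKM) lies just below the CK libraries.

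The strong inward rectifiers of the Kir2 family, which hold the resting potential, gave 1 call among 4 genes. Kcnj12 read 12.2, 11.3 and 91.9 FPKM (CK), 3.70, 6.31 and 8.72 FPKM (VD) and 10.9, 13 and 7.0 FPKM (INS+VD). Its CK mean was set by CK replicate 3, the library with cerebellar markers. The log2 fold change in VD vs. CK, −1.83 (SE 0.72, adjusted p = 0.361), was −0.88 and not called without that library. Kcnj4, the family's highest member, was at 0.0882 FPKM in CK replicate 3, listed at 0 in VD replicate 2, at 0.801 FPKM in INS+VD replicate 2, and at 35.7 to 72.2 FPKM in the other 6. Kcnj2 read 7.75, 4.46 and 1.54 FPKM (CK), 0, 4.70 and 4.48 FPKM (VD) and 4.05, 5.43 and 7.78 FPKM (INS+VD).

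The remaining Kir genes were not called. Kcnj11, the pore of the ATP-sensitive channel that closes when energy is plentiful, was among the most even, at 13.7, 14.4 and 13.7 FPKM (CK), 12.3, 9.72 and 7.68 FPKM (VD) and 17.7, 13.2 and 8.79 FPKM (INS+VD). All VD libraries were below all CK libraries, with a log2 fold change of −0.48 (SE 0.31, adjusted p = 0.494) under the minimum of 1. Abcc8, the sulfonylurea receptor that joins Kcnj11, was called lower in VD vs. CK (log2 fold change −1.08, adjusted p = 0.374). Kcnj10, the astrocyte channel that takes up potassium around active synapses, read 38.5, 56.3 and 39.1 FPKM (CK), 0.937, 139 and 43.4 FPKM (VD) and 64.4, 102 and 34.2 FPKM (INS+VD). Its highest value and that of its partner Kcnj16 (5.13, 68.4 and 28.1 FPKM in VD) were those of VD replicate 2, where summed astrocyte markers were also highest (5032 FPKM, against 1491 to 3142 FPKM elsewhere). Kcnj10 was lowest in VD replicate 1 (0.937 FPKM), although the astrocyte sum there was 3142 FPKM, the highest after VD replicate 2. The astrocyte list contains Kcnj10 itself, and the part of the list in these values was not tested.

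K2P genes, which carry leak current, gave 3 calls in VD vs. CK (Kcnk1, Kcnk10 and Kcnk13) among 9 tested of 14. Kcnk1, the TWIK1 channel found in neurons and astrocytes, read 40.0, 48.6 and 119.8 FPKM (CK), 20.3, 23.5 and 20.9 FPKM (VD) and 45.3, 26 and 39.7 FPKM (INS+VD). The 3 VD libraries lay close together below all others. Its log2 fold change was −1.48 (SE 0.41, adjusted p = 0.247), called under all 24 alternatives, and was closest to 0 but still past the minimum without CK replicate 3, where the value was 119.8 FPKM. Kcnk10, a mechanosensitive channel of the TREK type, had a log2 fold change of −1.23 (SE 0.52, adjusted p = 0.386) from 2.24, 1.03 and 7.84 FPKM (CK) and 0.119, 1.01 and 1.01 FPKM (VD), and lost its call in 15 of 24 alternatives. Kcnk9, an acid-sensitive TASK channel, read 22.1, 19.3 and 18.4 FPKM (CK), 0, 17.2 and 7.77 FPKM (VD) and 15.7, 25.5 and 35.1 FPKM (INS+VD), and its log2 fold change in INS+VD vs. VD of 2.21 (SE 0.89, adjusted p = 0.512) was 0.99 and not called without VD replicate 1, the listed 0.

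Kcnk13 and Kcnn4, both used by microglia, were called higher in VD than in CK. Kcnk13, the THIK1 channel that sets the resting potential of microglia, read 1.67, 2.17 and 0.491 FPKM (CK), 11.7, 1.49 and 15.4 FPKM (VD) and 1.90, 1.96 and 3.60 FPKM (INS+VD). VD replicates 1 and 3 lay above all other libraries, while VD replicate 2 was within the CK range. The fitted log2 fold change was 1.79 (SE 0.66, adjusted p = 0.351), and the call was lost without CK replicate 3, VD replicate 1 or VD replicate 3.

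Kcnn4, the intermediate-conductance calcium-activated channel of microglia and lymphocytes, read 0.280, 0.471 and 0.0536 FPKM (CK), 3.60, 0.834 and 2.97 FPKM (VD) and 0.448, 0.475 and 0.0779 FPKM (INS+VD). The VD libraries were the only ones above 0.5 FPKM, so the gene was tested only through the group where it was high and had to differ. Its log2 fold changes of 1.36 (SE 0.36, adjusted p = 0.228) in VD vs. CK and −1.29 (SE 0.36, adjusted p = 0.512) in INS+VD vs. VD are therefore descriptions. Markers of microglia and macrophages, 12 genes, were set beside both. Their sum was 73.2 to 166 FPKM (CK), 230 to 463 FPKM (VD) and 130 to 197 FPKM (INS+VD), with P2ry12 listed at 0 in VD replicate 1 and the others above 0 in all libraries. Of the 12, 7 were called higher in VD vs. CK (58.3%, beside 3.89% of all genes). In INS+VD vs. VD, 6 of the 12 were called lower (50%, beside 2.54% of all genes). Summed plasma cell markers were at 629 and 905 FPKM in VD replicates 1 and 3 and at 53.8 to 112 FPKM in the 7 others. Their part, and that of the olfactory bulb markers of the same libraries, in Kcnk13 and Kcnn4 was not tested.

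**Figure D4:**
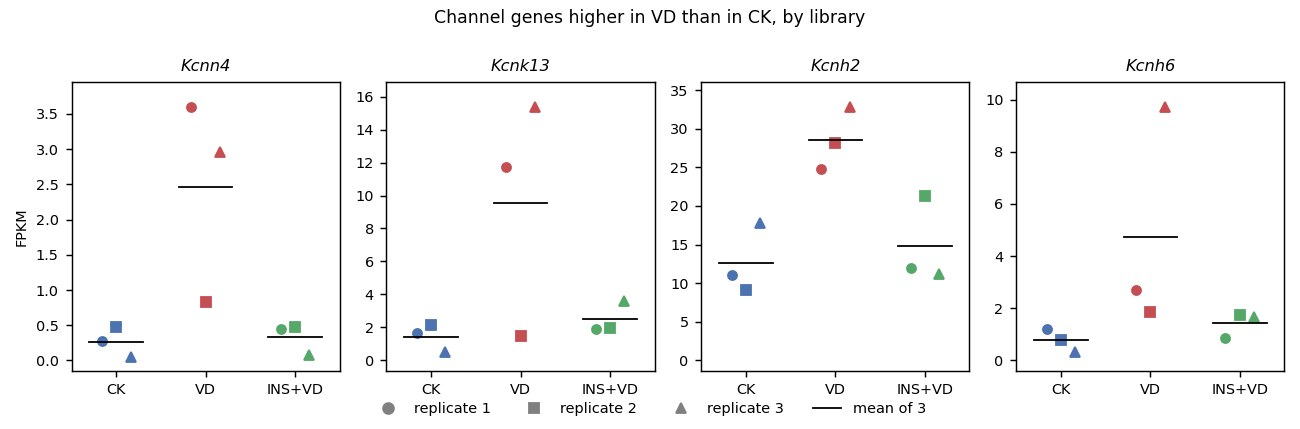
FPKM of the 4 potassium channel genes called higher in VD than in CK, 1 point per library (circle, square and triangle for replicates 1, 2 and 3) with the mean of the 3 as a line. Kcnh2 was at 24.8 to 32.8 FPKM in VD and at most 21.3 FPKM elsewhere, and VD replicate 2 was the lowest VD library for Kcnn4, Kcnk13 and Kcnh6.

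Kcnma1, the pore of the calcium-activated BK channel that shapes the fast after-hyperpolarisation, had the smallest p of all potassium channel genes in VD vs. CK. It lies on chromosome 15, 344360 to 1047956 in the deposited table. It read 28.1, 25.8 and 20.3 FPKM (CK), 3.17, 3.57 and 8.83 FPKM (VD) and 19.8, 9.11 and 22.1 FPKM (INS+VD). The groups averaged 24.7 ± 4.05 FPKM (SD, n = 3), 5.19 ± 3.16 FPKM (SD, n = 3) and 17 ± 6.91 FPKM (SD, n = 3), and VD did not overlap with either of the others. The log2 fold change was −2.16 (SE 0.43, adjusted p = 0.196) in VD vs. CK and 1.56 (SE 0.43, adjusted p = 0.512) in INS+VD vs. VD, and both calls held under all 24 alternatives, at −2.55 to −1.93 and 1.34 to 1.96 when 1 library was left out. Kcnmb2, the β subunit that makes the channel inactivate, read 1.04, 0.963 and 0.719 FPKM (CK) and 1.46, 1.59 and 2.61 FPKM (VD), with VD above CK in all libraries and a log2 fold change of 0.58 (SE 0.29, adjusted p = 0.418) that was under the minimum. Kcnmb4, the neuronal β subunit, ran from 11 FPKM in INS+VD replicate 2 to 164 FPKM in VD replicate 1 and was not called. The small-conductance channels Kcnn1, Kcnn2 and Kcnn3, which carry the medium after-hyperpolarisation, had log2 fold changes of −0.32, −0.09 and 0.51 and were not called.

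Sodium-activated channels, which open after bursts of firing, gave 1 call. Kcnt1 read 11.6, 11.3 and 37.7 FPKM (CK), 4.01, 5.71 and 8.64 FPKM (VD) and 13.2, 6.50 and 11.3 FPKM (INS+VD). VD lay below CK without overlap, with a log2 fold change of −1.40 (SE 0.50, adjusted p = 0.34). CK replicate 3 was again the highest, and without it the value was −0.85 and not called.

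Genes that work beside these channels were counted in the same way. Of 14 tested partners with other symbols, 4 were called lower in VD vs. CK (28.6%, beside 4.89% of all genes: Adam22, Adam23, Ank3 and Abcc8) and 0 higher, and 3 higher in INS+VD vs. VD (21.4%, beside 3.64% of all genes: Adam22, Adam23 and Ank3) and 0 lower. The median log2 fold change of the 14 was −0.75 in VD vs. CK and 0.45 in INS+VD vs. VD. Ank3, the ankyrin that anchors Kcnq3 at the axon initial segment, read 32, 32.8 and 33.2 FPKM (CK), 5.62, 19.7 and 18.1 FPKM (VD) and 33, 29.3 and 27.3 FPKM (INS+VD). VD did not overlap with either group. Adam22, a Kv1 partner at the axon and a receptor of Lgi1, read 28.8, 27.3 and 53 FPKM (CK), 0.390, 9.82 and 14.4 FPKM (VD) and 29, 21.2 and 28.2 FPKM (INS+VD), again without overlap. Of 15 potassium pump and cotransporter genes, 1 was called lower in VD vs. CK (6.67%, beside 4.89% of all genes). The same gene was the 1 called higher in INS+VD vs. VD (6.67%, beside 3.64% of all genes). This was Slc12a5, the neuronal potassium-chloride cotransporter, at 127, 129 and 141 FPKM (CK), 6.81, 47.8 and 92.9 FPKM (VD) and 114, 121 and 158 FPKM (INS+VD). Fxyd1, a regulator of the sodium pump, was the 1 gene called lower in INS+VD vs. VD (6.67%, beside 2.54% of all genes). Its log2 fold change was −1.36 (limma adjusted p = 0.512).

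Markers of neurons were set beside these neuronal channels. The sum of 14 pan-neuronal markers was 2920 to 4337 FPKM (CK), 2816 to 4496 FPKM (VD) and 3784 to 4105 FPKM (INS+VD), with none of them at 0 in any library. The highest VD sum, that of VD replicate 1, included 2513 FPKM of Uchl1, and without Uchl1 the sums were 2800 to 3462 FPKM (CK), 1984 to 3054 FPKM (VD) and 2723 to 3099 FPKM (INS+VD). Of these 14, 0 were called higher and 3 lower (21.4%, beside 4.89% of all genes: Rbfox3, Syn2 and Elavl4) in VD vs. CK. In INS+VD vs. VD, 1 of the 14 was called higher (7.14%, beside 3.64% of all genes). The median log2 fold change of the 14 was −0.55 in VD vs. CK and 0.49 in INS+VD vs. VD, beside −0.68 and 0.65 for the channels. Of 14 tested markers of hippocampal excitatory neurons, 4 were called lower in VD vs. CK (28.6%, beside 4.89% of all genes: Nptx1, Zbtb18, Neurod2 and Calb1). All 4 were highest in CK replicate 3, the library with cerebellar markers. For Calb1 the groups overlapped, at 57.2, 41.2 and 460 FPKM (CK) and 53.3, 22 and 10.1 FPKM (VD). In INS+VD vs. VD, 2 of the 14 excitatory markers were called higher (14.3%, beside 3.64% of all genes). The medians of these excitatory markers were −2.11 and 1.13. Of 12 markers of GABAergic interneurons, 0 were called higher and 0 lower in VD vs. CK (3.89% and 4.89% of all genes). In INS+VD vs. VD, 1 of the 12 was called higher (8.33%, beside 3.64% of all genes) and 0 lower (2.54% of all genes). Their medians were −0.14 and 0.20. The part of these markers in the channel values was not tested.

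Single libraries stood apart from their group for many channel genes. A gene was counted where the library lay at least 2 log2 units beyond both other replicates. CK replicate 3 was so lower for 15 of the 72 genes (2.82% of all genes) and so higher for 6 (1.69% of all genes). The 15 included Kcnf1, Kcng1, Kcnj4, Kcnq3 and Kcnq5, and the 6 included Kcnc1, Kcng4, Kcnj12, Kcnk12 and Kcnk3. VD replicate 1 was lower for 7 (6.93% of all genes), 3 of which were listed at 0 there, VD replicate 2 for 5 (1.36% of all genes) and INS+VD replicate 2 for 5 (0.921% of all genes). Kcnh3, Kcnj4 and Kcnv1 were lower in both of these. Kcnv1, a silent subunit of forebrain neurons, read 0.475 FPKM in VD replicate 2 and 0.483 FPKM in INS+VD replicate 2 and 10.6 to 30.1 FPKM in the other 7. With the third CK library and the second of VD and of INS+VD left out together, there were 22 lower and 6 higher genes in VD vs. CK (4.83% and 6.05% of all genes). In INS+VD vs. VD there were 22 higher and 6 lower (4.27% and 5.76% of all genes), and 0 potassium channel genes were at the adjusted p. These libraries stood apart in the same channel values, so these counts are descriptions and no further evidence of a difference. VD replicate 1 was kept in this fit.

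**Figure D5:**
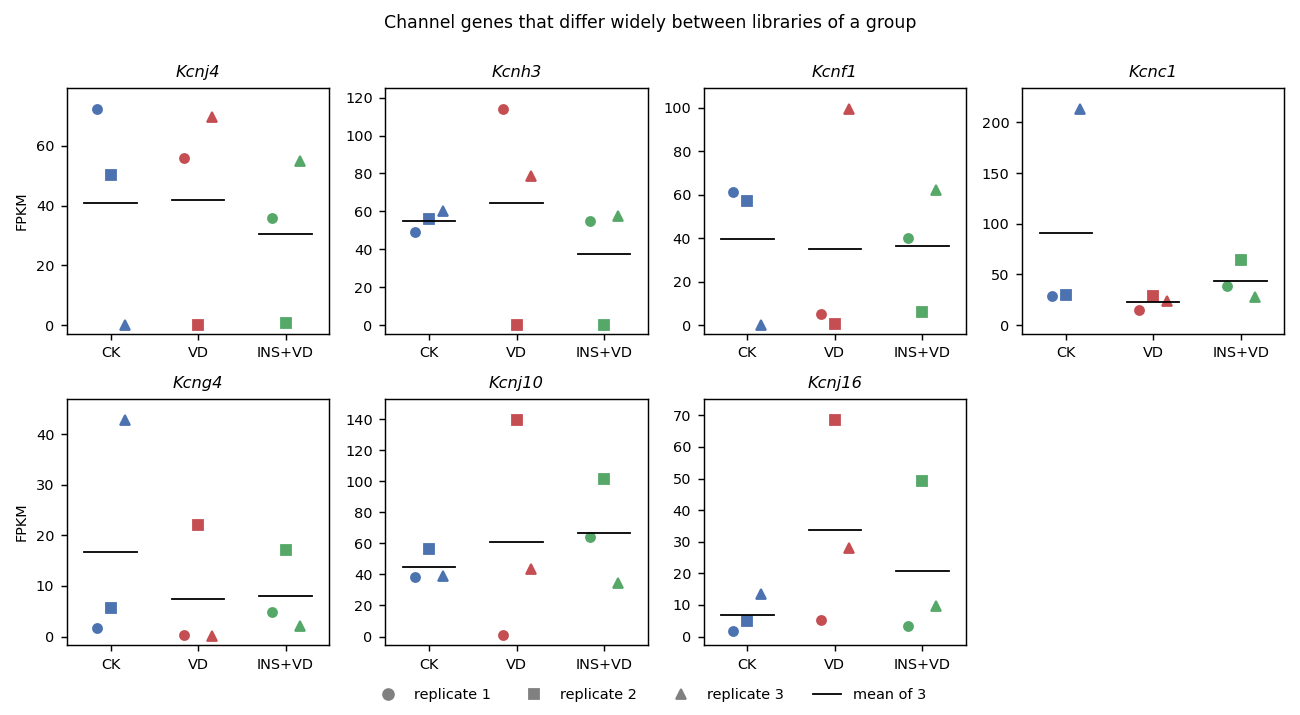
FPKM of 7 potassium channel genes that differed widely between libraries of a group, 1 point per library (circle, square and triangle for replicates 1, 2 and 3) with the mean of the 3 as a line. Kcnj4 and Kcnh3 were near 0 in VD replicate 2 and INS+VD replicate 2, Kcnc1 was at 213 FPKM in CK replicate 3, and Kcnj10 and Kcnj16 were highest in VD replicate 2 (139 and 68.4 FPKM).

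INS+VD vs. CK asks whether the insulin-treated ligated rats differed from the controls. By limma 0 of 72 potassium channel genes were called higher (0.636% of all genes) and 0 lower (0.305% of all genes), and 0 were at an unadjusted p of at most 0.05, against 275 of all genes. The smallest p was that of Kcnip2, a Kv4 partner at 0.0421 to 3.16 FPKM (limma adjusted p = 1). The groups did not overlap for 1 gene with INS+VD higher (Kcnip2; 5.85% of all genes) and for 3 with INS+VD lower (Kcnab1, Kcnip3 and Kcnj3; 5.27% of all genes). Kcnip2 passed the filter through the INS+VD libraries and VD replicate 3, with no CK library at 0.5 FPKM, so its difference from CK was in part fixed. The median log2 fold change of the channels was 0.12 and that of all genes −0.002. Of the genes called lower in VD vs. CK, Kcnj12, Kcnk10 and Kcnj9 had INS+VD means at 26.7%, 33.1% and 87.3% of the CK mean. The CK means of Kcnj12 and Kcnk10 were raised by replicate 3. For Kcnj12 the INS+VD libraries were at 10.9, 13 and 7.0 FPKM and CK replicates 1 and 2 at 12.2 and 11.3 FPKM. A p that misses the threshold does not show that the groups were alike, and with 3 libraries a group an exact permutation test cannot give a p below 0.1.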

How the data were processed

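RNA-seq of hippocampus was used in 3 groups of 3 libraries. Per the study's methods, clean reads were aligned with HISAT2 and FPKM was calculated by the authors, who deposited 1 table of FPKM for the series. The counting program is not given in the sources used here. The submitters' notes name a mouse build although the gene identifiers are those of rat, so positions are given as listed and without a build. Read counts were not used here, so depth is unknown and no counting interval is given. No column was left unmapped, and the table holds no comparisons of the authors.

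The scale was log2(FPKM + 1). A gene was kept if 3 or more of the 9 libraries had 0.5 FPKM or above, and 1 limma model (limma 3.58.1, R 4.3.3) with 3 groups, a mean-dependent prior variance and no replicate block was fitted to all kept genes, with Benjamini-Hochberg adjustment over them. The thresholds (adjusted p at most 0.05, absolute log2 fold change at least 1) follow the study's methods, and a second count used the unadjusted p. The fit was tested on simulated data with independent noise for each gene and no library that stood apart. That run cannot show how the fit behaves where libraries of a group differ as they do here. Plots were made in Python 3.11.15 with matplotlib 3.10.9.

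The genes, families and marker lists were chosen with earlier results of these data known. Fold changes are given for potassium channel genes at the unadjusted thresholds in VD vs. CK or INS+VD vs. VD. Levels are given for these, for the highest member of a family, for genes listed at 0 in 1 library while above 1 FPKM in the 8 others, and for genes with a textbook role. Other genes (such as Kcnd1, Kcnd3, Kcnh7, Kcnmb2, Kcnj5, Kcnj11, Kcnj16, Kcnip2, Kcnv1, Kcnn1 to Kcnn3 and the genes that stood apart in a library) were named after their values were seen. A few tested genes are included in the counts but not reported here. Alternatives were tried for the scaling, the pseudocount, the low-value filter, the variance prior, library weights, a replicate block, the thresholds and the libraries fitted.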

Additional observations from a re-analysis of the deposited data

How the results depend on the processing

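No called potassium channel gene changed direction under any of the 24 alternatives run for it, and no potassium channel gene passed the adjusted p in any of them. In VD vs. CK the count higher (4) was 7 with median centring, 7 with quantile normalization and 2 at an unadjusted p of at most 0.01, and the count lower (14) was 6 at that p and 22 with the third CK library and the second VD and INS+VD libraries left out together. In INS+VD vs. VD the count higher (9) was 3 at a p of at most 0.01 and 22 without those 3 libraries. The count lower (1) was 3 with median centring, 3 with quantile normalization and 4 with array weights (1.72% of all genes). It was 2 against a fold change minimum of 1.2 (treat), 2 with no fold change minimum and 6 without the 3 libraries. Those 3 libraries stood apart in the same channel values. No matching share of all genes was counted at a p of at most 0.01, for treat or with no fold change minimum. The counts under these 3 settings therefore have no background beside them. In INS+VD vs. CK a pseudocount of 0.1 gave 1 higher (1.13% of all genes). The causes were not tested. Leaving out 1 library at a time gave, in VD vs. CK, 2 to 7 higher (3.07% to 6.7% of all genes) and 9 to 18 lower (2.43% to 11.7%). The median log2 fold change was −0.89 to −0.52. In INS+VD vs. VD the same fits gave 5 to 14 higher (1.5% to 10.4%) and 1 to 4 lower (0.934% to 6.44%), with a median of 0.54 to 0.81. In INS+VD vs. CK they gave 0 to 1 higher (0.378% to 1.19%) and 0 to 1 lower (0.219% to 0.57%), with a median of −0.19 to 0.24. With 0 in VD replicate 1 as missing, an alternative chosen after seeing the data, 14 were lower (4.56% of all genes) and 5 higher (4.04%) in VD vs. CK. In INS+VD vs. VD, 8 were then higher (3.39%) and 1 lower (2.6%). Summing repeated symbols was not run because no symbol was repeated.

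With the replicate number as a block, 6 genes were higher (3.81% of all genes) and 15 lower (5.36%) in VD vs. CK (median −0.68). In INS+VD vs. VD, 8 were higher (3.91%) and 1 lower (2.23%), with a median of 0.65. In INS+VD vs. CK there were 0 and 0 (0.801% and 0.437%), with a median of 0.12. Deviations from the group means correlated at −0.32 to 0.38 for 9 library pairs that share a number and at −0.36 to 0.39 for 18 that do not, so the numbers were not taken to pair the samples.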
